A study of Homo sapiens with 14 samples.

Results

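SR proteins, hnRNPs and CDC-like kinases decide, between them, which exons a human cell keeps in its messenger RNAs. SR proteins, named for the stretches of serine and arginine that they carry, bind exonic enhancers and draw the spliceosome to nearby splice sites. The hnRNPs coat nascent RNA and often act against SR proteins, although several also stabilise, export or help to translate RNA. The CDC-like kinases (CLKs) phosphorylate the serine-arginine stretch, which releases SR proteins from nuclear speckles. Many genes of both protein families control their own transcripts through exons that lead to decay of the RNA, and the counts used here do not separate such isoforms.

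The members were all gene symbols of the deposited counts that begin with SRSF and a number, that begin with HNRNP, or that are CLK1 to CLK4. HNRNP symbols that end in P and a number, which are pseudogenes, were left out. The rule found 36 of 23106 symbols, namely 12 SR genes (SRSF1 to SRSF12), 20 hnRNP genes and 4 CLK genes. It used names only and no measured value. The older symbols HNRPDL and HNRPLL fall outside it.

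RNA was collected from PC3 cells, a human prostate carcinoma line, and from HCT116 cells, a human colorectal carcinoma line. Each line was kept for 16 h in normoxia (21% O2) or in hypoxia (0.5% O2) and polyadenylated RNA was sequenced, from 4 replicates of each PC3 condition and 3 of each HCT116 condition. No gene was altered in any of these groups. The lines were grown in different media (DMEM/Hams F12 for PC3 and McCoy's 5a for HCT116), so line and medium cannot be told apart in a comparison between them.

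The 14 libraries held 71228454 to 150630928 gene counts, so that 3 counts, the detection floor, correspond to 0.0199 to 0.0421 CPM (counts per 1000000 counts of a library). The hypoxic PC3 libraries were the shallowest, with a median of 84568058 counts. All 8 genes taken as a check of the oxygen label, NDRG1 and CA9 among them, were higher in hypoxia in both lines. Both lines expressed the epithelial genes EPCAM, KRT8 and KRT18. Of the lineage markers, PC3 expressed HOXB13 while KLK2 was at or near 0 and KLK3 was at 0, and HCT116 expressed CDX2 while CDX1 was at 0 and VIL1, LGALS4 and CDH17 were near 0. In PC3, both libraries numbered 1 stood apart from the others on the second principal component, which held 36.2% of the variance, and hypoxic replicate 4 lay farthest out on the first. Values without these libraries are given where they change a call. In HCT116, normoxic replicate 3 lay farthest out on the second principal component, which held 10.9% of the variance.

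Of the 36 members, 34 passed the filter on low counts in every comparison. SRSF12 had 0 to 3 counts in a library. HNRNPCL1, a relative of HNRNPC, had 0 counts in all 14, which allows at most the floor of each library. Neither was tested.

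Per kilobase of transcript, SRSF2 was the most abundant SR mRNA in every group, at a mean of 162 CPM per kb in normoxic PC3 and 277 CPM per kb in normoxic HCT116. SRSF2 (GRCh37 chr17:74730197-74733415, minus strand) encodes SC35, a protein long used to mark nuclear speckles. SRSF9 was next in PC3 at 89.7 CPM per kb, very close to SRSF1 at 88.0 CPM per kb, and the order of that pair was not separated by their spread. SRSF10 and SRSF8 were the lowest of the tested SR mRNAs in each group. Among hnRNPs, HNRNPA2B1, whose proteins bind and sort many RNAs, led in normoxic PC3 at 369 CPM per kb, and HNRNPC, a protein that packages nascent RNA, led in normoxic HCT116 at 467 CPM per kb. HNRNPA1 stood at 27.5 CPM per kb in normoxic PC3. Reads of genes with pseudogene copies, given below, could be lost or misplaced, so the order of the hnRNPs is uncertain. HNRNPA1L2, an intronless copy of HNRNPA1, and HNRNPA0 were the lowest of the tested hnRNPs in PC3 at 13.5 and 12.9 CPM per kb. The CLK mRNAs were far lower than the leading members of both other classes, at 4.96 to 20.2 CPM per kb in normoxic PC3 and 3.12 to 22.1 CPM per kb in normoxic HCT116.

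As a share of all gene counts, the SR genes took 0.179 to 0.206% of a normoxic PC3 library and 0.350 to 0.365% of a normoxic HCT116 library. In bulk libraries of this kind, fewer cells that express a gene and less of its RNA per cell cannot be told apart. In hypoxia the SR share was 0.156 to 0.180% in PC3 and 0.299 to 0.328% in HCT116. The hnRNP genes took 0.737 to 0.878% in normoxic and 0.677 to 0.802% in hypoxic PC3, against 1.06 to 1.11% and 1.03 to 1.10% in HCT116. The SR and hnRNP shares of the 2 lines did not overlap in either condition. These shares are of unscaled counts. On that scale the median log2 fold change of all genes in hypoxia was also below 0, at -0.10 in PC3 and -0.09 in HCT116. The CLK share was near 0.01% throughout, between 0.00832 and 0.0118%.

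**Figure D1:**
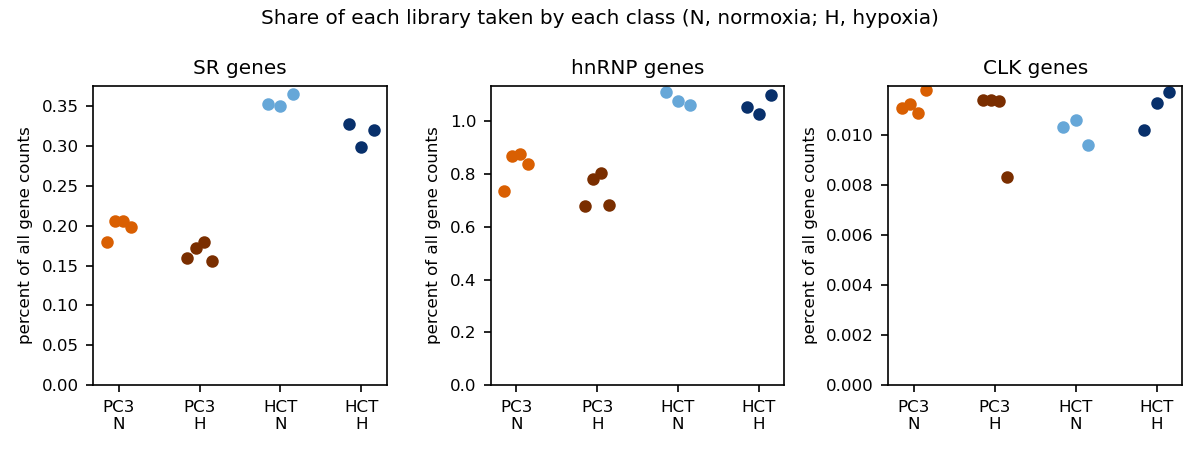
Percent of all gene counts of a library (y axis, from 0) taken by the SR, hnRNP and CLK genes, with 1 point per library in PC3 normoxia and hypoxia (n = 4 each) and HCT116 normoxia and hypoxia (n = 3 each). The SR share lay between 0.350 and 0.365% in normoxic HCT116 and between 0.179 and 0.206% in normoxic PC3, and the CLK shares of the lines lay within one range.

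In hypoxia, 3 members moved the same way past the threshold in both lines. CLK3, one of the kinases that phosphorylate SR proteins, rose in both lines. SRSF9, a small SR protein also called SRp30c, rose in both, and SRSF5, also called SRp40, fell in both. The threshold was an adjusted p of 0.05 by edgeR (quasi-likelihood test, adjusted by Benjamini and Hochberg over all genes of a fit), and all adjusted p-values of the report come from this test unless another is named.

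The level of CLK3 (chr15:74890841-74937755, plus strand, 13 exons) was 29.5, 28.6, 28.3 and 31.6 CPM in the normoxic PC3 libraries and 42.1, 44.4, 40.6 and 38.5 CPM in the hypoxic ones. In HCT116 the level was 42.6, 40.4 and 39.7 CPM in normoxia and 58.5, 64.9 and 64.9 CPM in hypoxia. Every hypoxic library stood above every normoxic library of its line, and hypoxic PC3 cells reached about the level of normoxic HCT116 cells. The log2 fold change was 0.49 (SE 0.0672, adjusted p = 0.00281, edgeR), a fold of 1.41, in PC3 and 0.63 (SE 0.0649, adjusted p = 6.04e-05, edgeR), a fold of 1.55, in HCT116. Each call held under every alternative run and without any single library.

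The other CLK genes did not move together with CLK3. CLK1 (chr2:201717732-201729414, minus strand), the best studied SR protein kinase of this family, was 39.1, 37.4, 36.0 and 37.1 CPM in normoxic PC3 and 38.2, 35.0, 36.4 and 25.2 CPM in hypoxic PC3. In HCT116 its levels were 27.7, 30.6 and 28.2 CPM in normoxia and 22.8, 25.9 and 27.3 CPM in hypoxia. The conditions overlapped in PC3 and did not overlap in HCT116, and CLK1 passed the test in neither line (log2 fold changes of -0.14, SE 0.121, and -0.17, SE 0.0760).

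CLK2 (chr1:155232659-155248282, minus strand), which also phosphorylates SR proteins, was 23.3, 28.5, 27.0 and 29.4 CPM in normoxic PC3 and 19.2, 23.0, 23.5 and 16.2 CPM in hypoxic PC3. Its HCT116 levels were 24.3, 24.8 and 22.9 CPM in normoxia and 21.2, 23.1 and 24.6 CPM in hypoxia. The PC3 conditions overlapped by a single pair of libraries, normoxic replicate 1 at 23.3 CPM and hypoxic replicate 3 at 23.5 CPM. The log2 fold change in PC3 was -0.39 (SE 0.121, adjusted p = 0.0671, edgeR), and with the replicate number as a block it was -0.40 and passed (adjusted p = 0.0304, edgeR). DESeq2 called it too (adjusted p = 0.0268), and it also passed with upper-quartile scaling, total counts alone or 1 fit over 14 libraries. In HCT116 it was -0.05 (SE 0.0701).

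CLK4 (chr5:178029665-178057616, minus strand), the closest relative of CLK1, was 12.2, 12.01, 12.2 and 13.3 CPM in normoxic PC3 and 13.5, 13.3, 12.3 and 8.33 CPM in hypoxic PC3. In HCT116, CLK4 was 7.44, 8.69 and 7.29 CPM in normoxia and 4.66, 5.73 and 6.06 CPM in hypoxia. All 3 hypoxic HCT116 libraries lay below all normoxic ones, and CLK4 fell with a log2 fold change of -0.50 (SE 0.114, adjusted p = 0.00927, edgeR). In PC3 the log2 fold change was -0.06 (SE 0.142), and without hypoxic replicate 4 it was 0.078 (SE 0.0683). That library was also the lowest of hypoxic PC3 for CLK1, CLK2 and CLK3.

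Within the class the balance of the kinases differed between conditions. Measured per kilobase, CLK3 made up 29.6% of the summed CLK level in normoxic PC3 and 40.7% in hypoxic PC3, and 42.5% and 56.0% in HCT116. CLK1 made up 37.7% in normoxic and 33.3% in hypoxic PC3, and 30.1% and 22.7% in HCT116. CLK1 therefore stood first in normoxic PC3, where its libraries did not overlap those of CLK3 per kilobase, and CLK3 stood first in the 3 other groups. The shares are parts of one sum, so a rise of CLK3 lowers the share of CLK1, which passed in neither line. No test was run on the shares.

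**Figure D2:**
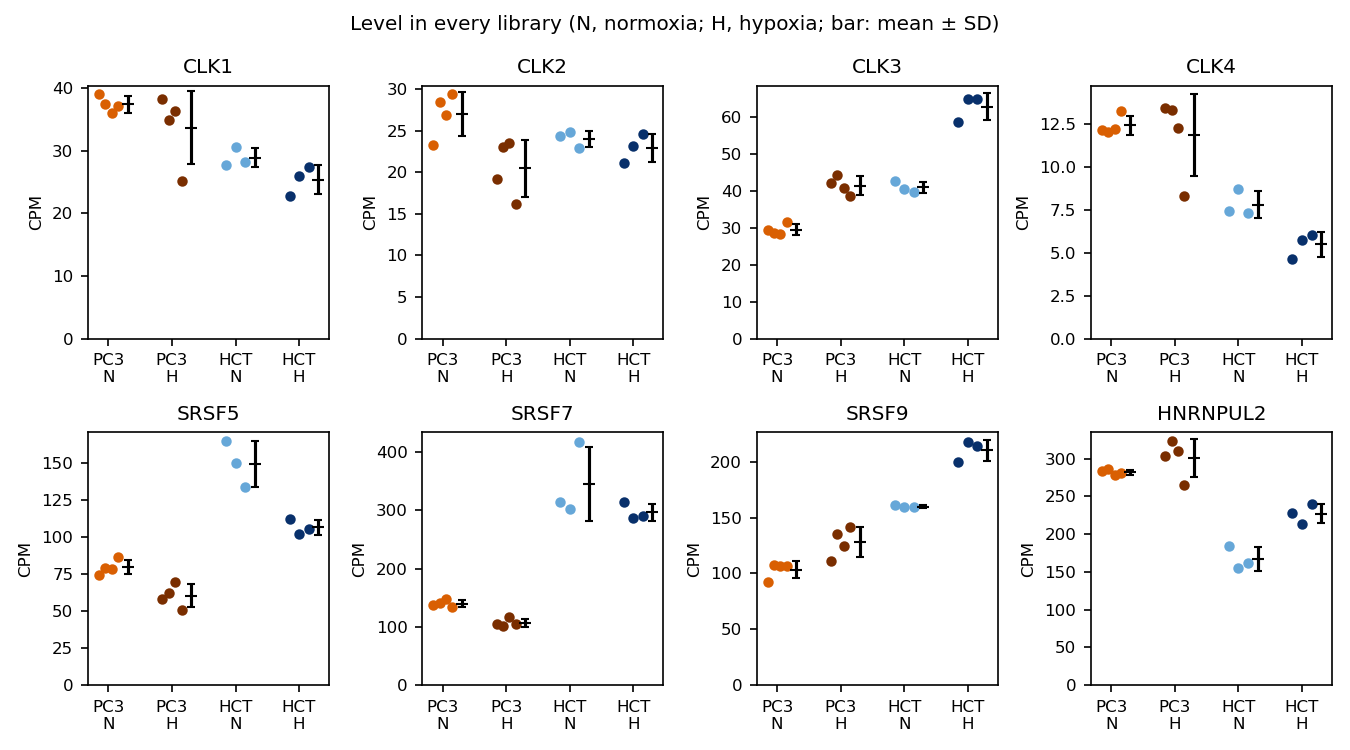
Level in CPM (y axes, from 0) of the 4 CLK genes, SRSF5, SRSF7, SRSF9 and HNRNPUL2 in every library of PC3 and HCT116 (HCT) in normoxia (N) and hypoxia (H), where each point is 1 library and the bar beside it is the mean ± SD. CLK3 stood between 38.5 and 44.4 CPM in hypoxic PC3 against 28.3 to 31.6 CPM in normoxic PC3, and SRSF5 stood lower in hypoxia in both lines.

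The level of SRSF9 (chr12:120899475-120933749, minus strand, 4 exons in its main transcript) was 92.2, 108, 107 and 107 CPM in normoxic PC3 and 111, 135, 125 and 142 CPM in hypoxic PC3. In HCT116 it was 161, 160 and 159 CPM in normoxia and 200, 217 and 214 CPM in hypoxia. The conditions were separate in both lines, with a rise of 0.31 on the log2 scale (SE 0.0839, adjusted p = 0.0419, edgeR) in PC3 and of 0.41 (SE 0.0605, adjusted p = 0.000769, edgeR) in HCT116. The GENCODE span of SRSF9 overlaps DYNLL1 and GATC on the other strand, but reads were counted in RefSeq genes, whose extent may differ. Whether strand was used in counting is not given in the sources used here. The PC3 call was lost when any library other than hypoxic replicate 1 was left out, with adjusted p up to 0.117 by edgeR, and also with upper-quartile scaling, total counts alone or no filter, whereas with both libraries numbered 1 left out the adjusted p was 0.0227. The HCT116 call held without any single library.

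SRSF5 (chr14:70193617-70238722, plus strand, 8 exons) was 74.4, 79.4, 78.5 and 86.2 CPM in normoxic PC3 and 58.3, 62.4, 69.6 and 50.9 CPM in hypoxic PC3. The HCT116 libraries held 165, 150 and 134 CPM in normoxia and 112, 102 and 105 CPM in hypoxia. No hypoxic library reached a normoxic one of its line. The log2 fold change was -0.40 (SE 0.0941, adjusted p = 0.0275, edgeR) in PC3 and -0.47 (SE 0.0796, adjusted p = 0.00177, edgeR) in HCT116, which leaves 0.760 and 0.721 of the normoxic level. In PC3 the adjusted p was 0.0521 by edgeR without both libraries numbered 1 and up to 0.0807 without normoxic replicate 2, 3 or 4 or hypoxic replicate 2, each of which ended the call, and the HCT116 call held throughout. Per kilobase, SRSF5 went from 8.23 to 6.24% of the SR level in HCT116, while SRSF9 went from 11.4 to 16.0%.

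Because CLK3, SRSF9 and SRSF5 were the members that passed in both lines, the 250 bases before their annotated starts are printed from RefSeq (GRCh38.p14), in the direction of transcription. Capitals mark the letters ACGTG or GCGTG on either strand, the core to which hypoxia-inducible factors bind. The windows are chr15:74608122-74608371 and chr15:74615586-74615835, plus strand, for the annotated starts of CLK3, chr12:120469749-120469998, minus strand, for SRSF9, and chr14:69766892-69767141, plus strand, for SRSF5.
CLK3 first start: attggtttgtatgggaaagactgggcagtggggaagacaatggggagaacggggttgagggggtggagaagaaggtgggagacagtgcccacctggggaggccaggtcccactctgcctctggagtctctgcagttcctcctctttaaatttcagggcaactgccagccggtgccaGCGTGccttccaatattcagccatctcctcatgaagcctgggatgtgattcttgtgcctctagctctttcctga
CLK3 second start: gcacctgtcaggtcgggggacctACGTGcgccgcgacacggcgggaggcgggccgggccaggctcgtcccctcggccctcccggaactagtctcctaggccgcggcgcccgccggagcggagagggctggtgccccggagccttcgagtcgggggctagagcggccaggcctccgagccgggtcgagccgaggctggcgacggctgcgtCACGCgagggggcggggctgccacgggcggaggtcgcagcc
SRSF9: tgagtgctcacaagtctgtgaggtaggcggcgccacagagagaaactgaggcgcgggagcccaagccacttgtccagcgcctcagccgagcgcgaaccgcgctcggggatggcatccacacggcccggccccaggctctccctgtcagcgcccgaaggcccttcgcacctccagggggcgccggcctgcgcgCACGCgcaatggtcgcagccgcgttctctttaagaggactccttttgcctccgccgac
SRSF5: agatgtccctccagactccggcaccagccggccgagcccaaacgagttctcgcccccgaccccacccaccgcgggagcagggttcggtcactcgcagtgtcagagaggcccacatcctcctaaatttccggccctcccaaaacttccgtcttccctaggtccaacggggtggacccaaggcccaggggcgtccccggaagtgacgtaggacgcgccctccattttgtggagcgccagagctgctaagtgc
The first CLK3 window held GCGTG at 74 bases before the start. The second held ACGTG at 227 bases and GCGTG, on the opposite strand, at 41 bases before it, and SRSF9 held GCGTG on the opposite strand at 58 bases. The SRSF5 window held neither. ACGTG was found in 18.5% and GCGTG in 32.2% of the 35116 RefSeq windows of the same length, and 43.2% held either. Of the 36 members, 34 symbols had windows, 49 in all, of which 38 (77.6%) held at least one of these words. The member windows were richer in G and C, with a median of 64.8% against 58.0% over all windows, and the part of base composition in this share was not tested. A match of letters is a description and shows no binding.

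In PC3, 6 of the 34 tested members passed the threshold (17.6%), against 11.3% of all 14309 genes tested (6.03% higher and 5.29% lower). The rises were CLK3 and SRSF9, and the falls were SRSF5, SRSF7, SRSF8 and SRSF11. All 5 of the SR calls came from 11 tested SR genes, of which 8 had log2 fold changes below 0 and whose median was -0.17. In the main edgeR fit, which had no replicate block, no hnRNP passed among 19 tested, with 1 at an unadjusted p under 0.05. None passed by DESeq2. By edgeR without the block, HNRNPA1L2 fell with 1 fit over 14 libraries (adjusted p = 0.0426) and with total counts alone (0.0392). HNRNPF also fell with total counts alone (adjusted p = 0.0385, edgeR). With the block, given below, 5 of the 19 fell. In the main fit, 15 of the 19 had log2 fold changes below 0, and the median was -0.11. The median of all genes was 0.0023. All hypoxic libraries lay above all normoxic ones for 2 members and below them for 5 (the 4 falls and HNRNPH1), against 9.62% and 11.3% of all genes. Without both libraries numbered 1, CLK3 and SRSF9 rose and SRSF7 and SRSF8 fell, against 7.04% and 5.42% of all genes.

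SRSF7 (chr2:38970741-38978636, minus strand), a shuttling SR protein also called 9G8, was 137, 141, 147 and 135 CPM in normoxic PC3 and 104, 102, 117 and 105 CPM in hypoxic PC3. The conditions were separate, and SRSF7 fell with a log2 fold change of -0.38 (SE 0.0670, adjusted p = 0.00859, edgeR), a call that held under every alternative and without any single library. In HCT116 its levels were 314, 303 and 418 CPM in normoxia and 314, 286 and 290 CPM in hypoxia, with overlap and no call (log2 fold change -0.20, SE 0.113).

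SRSF11 (chr1:70671365-70718735, plus strand), an SR-like protein also called p54, was 96.8, 107, 106 and 104 CPM in normoxic PC3 and 80.8, 86.7, 90.9 and 67.3 CPM in hypoxic PC3. It fell by 0.34 on the log2 scale (SE 0.0922, adjusted p = 0.0436, edgeR), and the adjusted p without both libraries numbered 1 was 0.0679 by edgeR. SRSF8 (chr11:94800083-94804388, plus strand), a close relative of SRSF2, lay at 55.0 to 57.0 CPM in normoxic PC3 and 42.7 to 48.9 CPM in hypoxic PC3. It fell by 0.27 (SE 0.0621, adjusted p = 0.0226, edgeR), while in HCT116 it lay at 61.0 to 62.9 and 60.5 to 61.9 CPM with a log2 fold change of -0.0016. The conditions of both genes were separate in PC3. The call of SRSF11 was lost without any 1 of the normoxic libraries or hypoxic replicate 1 or 2, with adjusted p up to 0.128 by edgeR, and it also just missed the threshold with no filter. That of SRSF8 was lost without normoxic replicate 2, 3 or 4 or hypoxic replicate 2 or 3, with adjusted p up to 0.0841 by edgeR.

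The same replicate numbers marked PC3 libraries that deviated together, so the test was also run with the number as a block. Then 14 members passed, 2 higher and 12 lower, against 28.5% of all genes (14.9% higher and 13.6% lower). The 2 rises were CLK3 and SRSF9. The falls were SRSF2, SRSF5, SRSF6, SRSF7, SRSF8 and SRSF11, the hnRNPs HNRNPA1L2, HNRNPA3, HNRNPAB, HNRNPH3 and HNRNPU, and CLK2. Among these hnRNPs the blocked log2 fold change ran from -0.27 (HNRNPA1L2, SE 0.0539, adjusted p = 0.0128, edgeR) to -0.15 (HNRNPAB, SE 0.0439, adjusted p = 0.0463, edgeR).

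**Figure D3:**
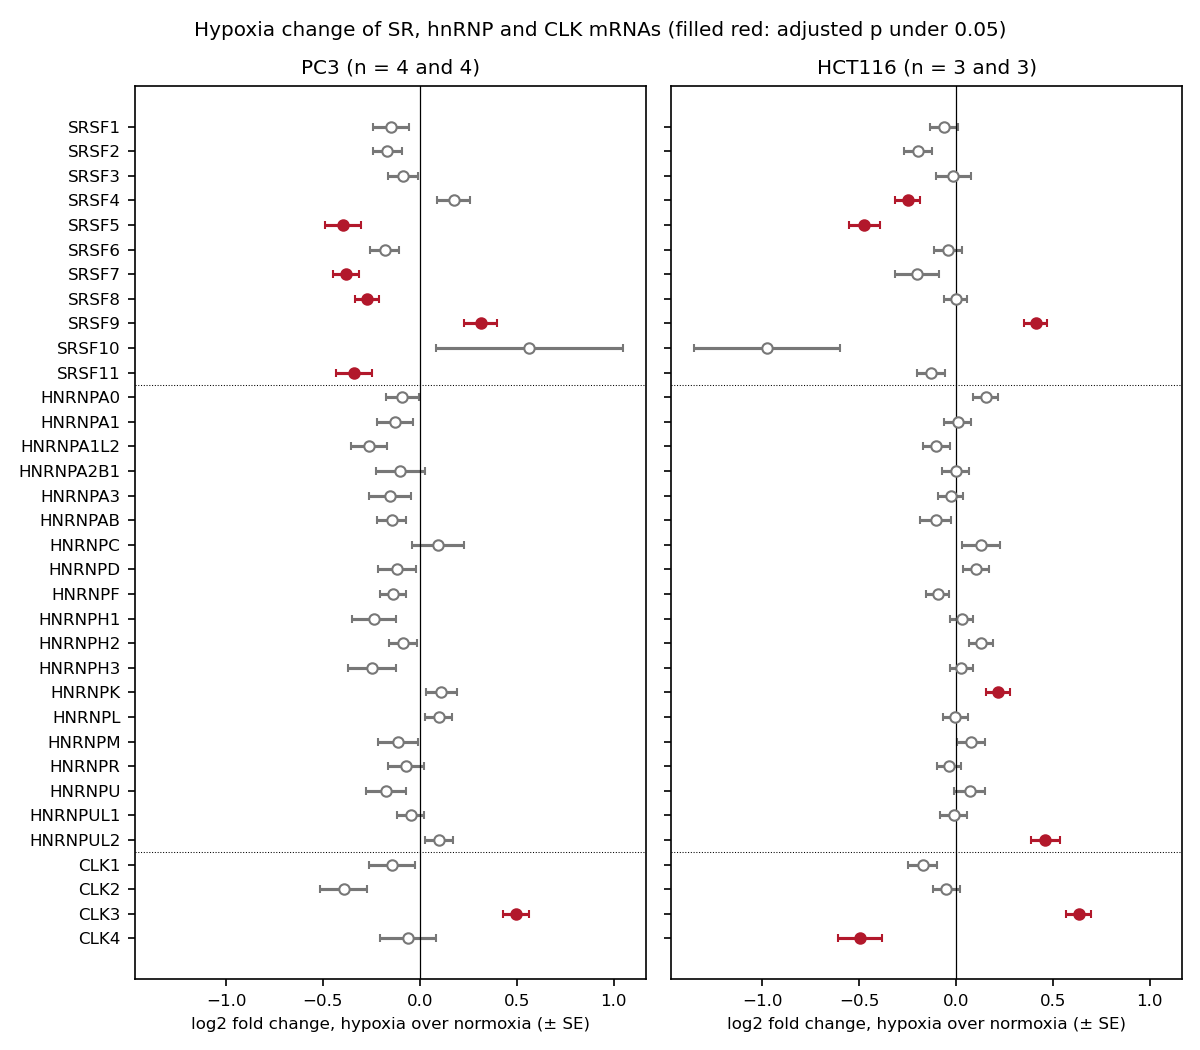
Log2 fold change of hypoxia over normoxia (x axis, point ± SE) for the 34 tested members (y axis) in PC3 (n = 4 and 4 libraries) and HCT116 (n = 3 and 3), ordered as SR, hnRNP and CLK genes between dotted lines, with filled red points past an adjusted p of 0.05. CLK3 lay at 0.49 and 0.63, SRSF9 at 0.31 and 0.41 and SRSF5 at -0.40 and -0.47, and SRSF10 had the widest errors.

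In HCT116, 7 of the 34 members passed (20.6%), against 25.9% of all 14120 genes tested. CLK3, SRSF9, HNRNPUL2 and HNRNPK rose, and CLK4, SRSF5 and SRSF4 fell. The SR median was -0.13 with 10 of 11 below 0, and the hnRNP median was 0.03 with 11 of 19 above 0, beside a median of 0.0018 over all genes. Without normoxic replicate 3 the SR median was -0.05, and without any other single library it lay between -0.18 and -0.10. The conditions were separate, with hypoxia higher, for 4 members and, with hypoxia lower, for 8, against 20.3% and 22.2% of all genes. Of all genes, 14.6% were called higher and 11.3% lower. SRSF2 did not pass, but was called lower by DESeq2 (-0.21, adjusted p = 0.0296), and by edgeR with upper-quartile scaling or total counts alone, and HNRNPC passed without normoxic replicate 3 (0.24, adjusted p = 0.0191, edgeR).

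HNRNPUL2 (chr11:62480102-62494929, minus strand), a relative of the scaffold protein hnRNP U that is also linked to DNA repair, was 184, 155 and 161 CPM in normoxic HCT116 and 228, 214 and 239 CPM in hypoxic HCT116. It rose by 0.46 on the log2 scale (SE 0.0765, adjusted p = 0.00158, edgeR), a fold of 1.38, with separate conditions and a call that held under every alternative. In PC3 it was 283, 286, 278 and 281 CPM in normoxia and 304, 324, 310 and 265 CPM in hypoxia. Of the hypoxic PC3 libraries 3 lay above all normoxic ones and replicate 4 lay below them, with a log2 fold change of 0.10 (SE 0.0737).

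HNRNPK (chr9:86582998-86595546, minus strand), a protein that binds C-rich RNA, was 1099, 1118 and 1108 CPM in normoxic and 1283, 1288 and 1249 CPM in hypoxic HCT116. In PC3 it was 611, 707, 715 and 705 CPM in normoxia and 660, 752, 730 and 805 CPM in hypoxia. The conditions were separate in HCT116 and overlapped in PC3. The HCT116 rise was 0.22 (SE 0.0597, adjusted p = 0.0211, edgeR), and the call was lost without either replicate 1 or either replicate 2 library, with adjusted p up to 0.0881 by edgeR. It was also lost with total counts alone (adjusted p = 0.167, edgeR), with 1 fit over 14 libraries (0.146) and with the replicate block (0.0514). In PC3 the log2 fold change was 0.11 (SE 0.0799).

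SRSF4 (chr1:29474255-29508412, minus strand), also called SRp75, was 121, 120 and 116 CPM in normoxic and 91.8, 100.3 and 105 CPM in hypoxic HCT116. In PC3 it was 67.6, 82.8, 82.5 and 86.9 CPM in normoxia and 88.9, 95.8, 92.4 and 82.3 CPM in hypoxia. It fell in HCT116 by 0.25 (SE 0.0643, adjusted p = 0.0165, edgeR) with separate conditions, and in PC3 its log2 fold change was 0.17 (SE 0.0837) with overlapping conditions. The HCT116 call was lost without hypoxic replicate 1 or normoxic replicate 2, with adjusted p up to 0.0546 by edgeR, and with 1 fit over 14 libraries (0.0754).

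The difference of the hypoxia changes between the lines was tested as the interaction of line and oxygen over the 14 libraries. By edgeR no member passed among 34, with 5 at an unadjusted p under 0.05, whereas 2.32% of all 15493 genes passed and 16.0% were at an unadjusted p under 0.05. The 5 were SRSF4 (difference 0.43 on the log2 scale, PC3 minus HCT116, 95% interval 0.20 to 0.67), SRSF8 (-0.26, -0.42 to -0.10), SRSF10 (1.55, 0.13 to 2.98), HNRNPUL2 (-0.35, -0.57 to -0.13) and CLK4 (0.44, 0.04 to 0.85). SRSF4 had the smallest adjusted p, 0.0797 by edgeR. With the replicate block it passed (adjusted p = 0.0326, edgeR), as did HNRNPUL2 (0.0410), against 8.44% of all genes, and DESeq2 called SRSF4 and SRSF8 against 6.70% of all genes. Without hypoxic PC3 replicate 4, CLK4 passed with a difference of 0.58 (SE 0.138, adjusted p = 0.0338, edgeR), and SRSF4 and SRSF8 passed as well, whereas no member passed with any other library left out. For the 3 members that passed in both lines the differences were -0.13 (95% interval -0.32 to 0.06) for CLK3, -0.09 (-0.32 to 0.14) for SRSF9 and 0.09 (-0.18 to 0.36) for SRSF5. These intervals still hold differences of up to 0.36 on the log2 scale in one direction or the other.

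SRSF10 (chr1:24290837-24307417, minus strand), an SR protein that represses splicing when it is dephosphorylated, did not give repeatable levels. It was 3.96, 4.84, 5.12 and 4.52 CPM in normoxic PC3 and 4.14, 16.3, 4.18 and 2.71 CPM in hypoxic PC3. In HCT116 it was 11.2, 38.8 and 11.9 CPM in normoxia and 9.66, 11.2 and 10.2 CPM in hypoxia. One library in each line stood more than 3 times above its replicates, hypoxic replicate 2 in PC3 with 1256 counts and normoxic replicate 2 in HCT116 with 5471 counts. The PC3 log2 fold change was 0.56 (SE 0.483) with that library and -0.31 (SE 0.180) without it, and the HCT116 value was -0.97 (SE 0.375) with and -0.15 (SE 0.101) without. SRSF10 was not called in HCT116, but with the high library kept it passed when normoxic replicate 1 or 3 was left out (adjusted p = 0.0141 and 0.00768, edgeR), with total counts alone (0.0128) and with no filter (0.0244).

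Between the lines at normoxia, PC3 cells had less mRNA of nearly every SR gene and of most hnRNPs than HCT116 cells. Of 34 members, 29 passed (85.3%), 24 lower and 5 higher in PC3, against 83.4% of all 15206 genes (40.5% lower and 42.9% higher). All 11 tested SR genes were lower, with a median log2 difference of -0.93, and 12 of 19 hnRNPs were lower and 3 higher, with a median of -0.44. Among the CLK genes CLK3 was lower while CLK1 and CLK4 were higher, with a median of 0.25, and the median of all genes was 0.03. The libraries of the lines did not overlap for 25 members lower and 4 higher in PC3, against 40.0% and 42.9% of all genes. All differences are relative to the whole of each library.

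Past SRSF10, which had the lowest value of -2.18 (SE 0.395) and -1.35 (SE 0.118) without normoxic HCT116 replicate 2, the leading SR gene was SRSF6. SRSF6 (chr20:42086533-42094686, plus strand), also called SRp55, was 208, 237, 229 and 218 CPM in normoxic PC3 and 624, 602 and 610 CPM in normoxic HCT116. No library of one line came near the other, and the log2 difference was -1.48 (SE 0.0602, adjusted p = 1.53e-08, edgeR), which puts PC3 at 0.360 of the HCT116 level. SRSF7, at the normoxic levels given above, differed by -1.32 (SE 0.108, adjusted p = 1.85e-06, edgeR). The smallest SR difference was that of SRSF8, at -0.17 (SE 0.0485, adjusted p = 0.00892, edgeR), and this call was lost with total counts alone (adjusted p = 0.255, edgeR). It did not pass with the replicate block either (adjusted p = 0.0664, edgeR). Between the lines that block matches libraries by number alone, which links nothing, so this loss does not bear on the call.

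HNRNPL (chr19:39327010-39342987, minus strand), a protein that binds CA repeats in RNA, was 258, 265, 284 and 260.3 CPM in normoxic PC3 and 685, 698 and 658 CPM in normoxic HCT116. HNRNPA0 (chr5:137081340-137090052, minus strand), an intronless member of the A/B group, was 102, 116, 118 and 114 CPM against 301, 283 and 274 CPM. HNRNPD (chr4:83273651-83295656, minus strand), the AU-rich element binding protein AUF1, was 242, 310, 302 and 297 CPM against 570, 555 and 540 CPM. Each of the 3 was lower in PC3 in every library. Their log2 differences were -1.37 (SE 0.0589, adjusted p = 2.15e-08, edgeR), -1.37 (SE 0.0622, adjusted p = 3.09e-08, edgeR) and -0.97 (SE 0.0815, adjusted p = 2.27e-06, edgeR).

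The hnRNPs that were higher in PC3 were HNRNPUL2, HNRNPH2 and HNRNPH3. HNRNPUL2, at the normoxic levels given above, differed by 0.74 (SE 0.0697, adjusted p = 5.26e-06, edgeR), a fold of 1.67. HNRNPH2 (chrX:100663210-100669121, plus strand), which like HNRNPH1 and HNRNPF binds runs of G, was 114, 115, 107 and 121 CPM in normoxic PC3 and 94.2, 96.7 and 87.7 CPM in normoxic HCT116. HNRNPH3 (chr10:70090931-70102950, plus strand) was 243, 245, 258 and 212 CPM against 214, 202 and 199.6 CPM. The lines were separate for HNRNPH2 (log2 difference 0.28, SE 0.0599, adjusted p = 0.00167, edgeR) and overlapped for HNRNPH3 (0.20, SE 0.0764, adjusted p = 0.0306, edgeR), whereas their relatives HNRNPH1 and HNRNPF were lower in PC3, by 0.58 and 0.80 on the log2 scale. The call of HNRNPH3 was lost without normoxic PC3 replicate 2 or 3 or normoxic HCT116 replicate 2 or 3, with adjusted p up to 0.0960 by edgeR, and also with upper-quartile scaling (0.0654) or 1 fit over 14 libraries (0.0702). HNRNPR, lower in PC3 by 0.22 on the log2 scale, lost its call with total counts alone, with 1 fit over 14 libraries and without normoxic HCT116 replicate 2 (adjusted p = 0.0544, edgeR).

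CLK4 was 1.57-fold and CLK1 1.28-fold higher in normoxic PC3 than in normoxic HCT116, with log2 differences of 0.65 (SE 0.0874, adjusted p = 7.01e-05, edgeR) and 0.35 (SE 0.0637, adjusted p = 0.000524, edgeR). CLK3 differed in the opposite direction by -0.49 (SE 0.0609, adjusted p = 3.81e-05, edgeR), and CLK2 did not pass (0.15, SE 0.0801), although without normoxic PC3 replicate 1 it was 0.22 with an adjusted p of 0.00592 by edgeR. The members that did not pass besides CLK2 were HNRNPA1L2, HNRNPA2B1, HNRNPU and HNRNPUL1. Without normoxic PC3 replicate 1, HNRNPUL1 passed as well (0.14, adjusted p = 0.0360, edgeR), and with total counts alone both CLK2 and HNRNPUL1 passed. In the 7 hypoxic libraries the comparison of the lines gave 21 members lower and 3 higher (HNRNPUL2, CLK1 and CLK4), against 78.7% of all genes, and SRSF4, SRSF10, HNRNPH2, HNRNPH3 and HNRNPR no longer passed.

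**Figure D4:**
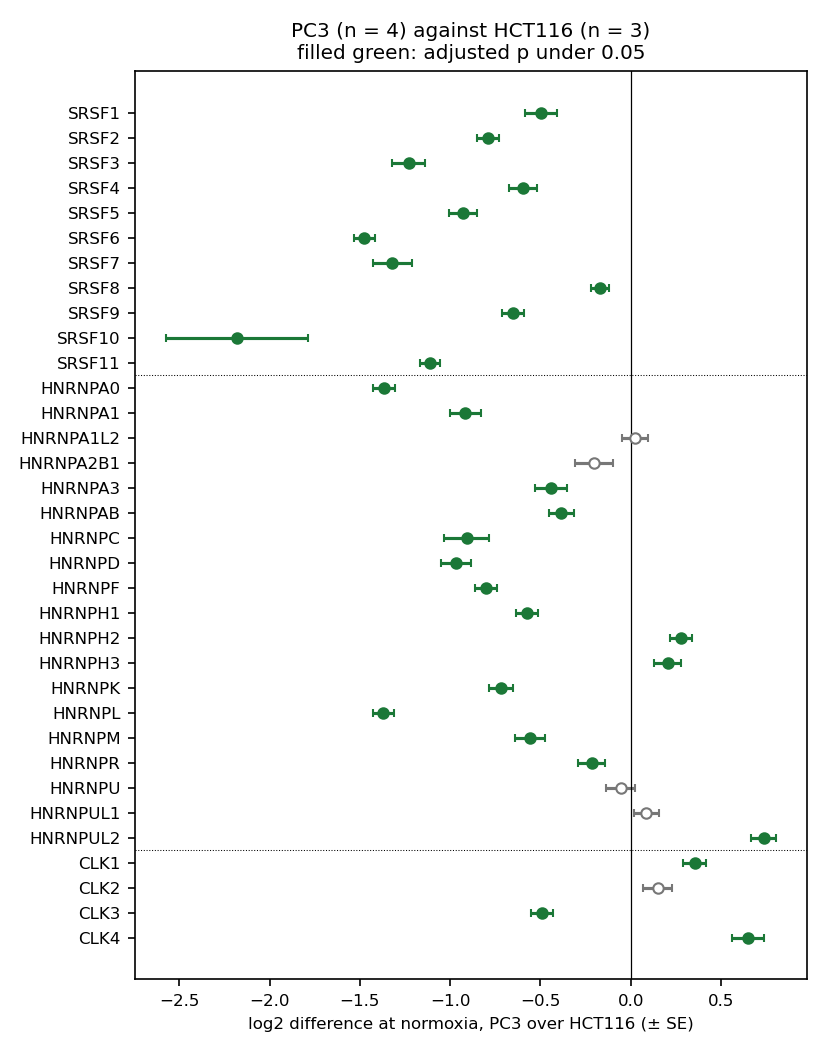
Log2 difference between PC3 (n = 4) and HCT116 (n = 3) in normoxia (x axis, point ± SE) for the 34 tested members (y axis), ordered as SR, hnRNP and CLK genes between dotted lines, with filled green points past an adjusted p of 0.05. All 11 SR genes lay to the left of 0, from -2.18 to -0.17, and HNRNPUL2 at 0.74 and CLK4 at 0.65 lay farthest to the right.

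Several of these genes share sequence with copies elsewhere. GENCODE lists 74 pseudogenes named after HNRNPA1, 16 after HNRNPA3, 9 after HNRNPC and 5 each after SRSF3 and HNRNPK, so reads of these genes could be lost or misplaced. The GENCODE spans of SRSF2, CLK2, CLK3, HNRNPA2B1, HNRNPA3, HNRNPH3, HNRNPU and HNRNPUL1 overlap other counted protein-coding genes. The RefSeq genes used in counting may differ in extent, so the counting of reads in such stretches is uncertain.

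Other genes of the splicing pathway were read from lists, whose counts stand beside the shares of all genes called in PC3 (6.03% up, 5.29% down) and in HCT116 (14.6% up, 11.3% down). Of the kinases, phosphatases and import factor that act on SR proteins, none of 11 tested passed in PC3 by edgeR, with 2 at an unadjusted p under 0.05. PPP1CB, a catalytic subunit of protein phosphatase 1, passed there by DESeq2, and PPP1CB and DYRK1B with the replicate block. In HCT116, 1 rose and 4 fell, namely PPP1CB (0.37, SE 0.0771, adjusted p = 0.00570, edgeR), PRPF4B (-0.31), DYRK3 (-0.31), SRPK2 (-0.27) and SRPK1 (-0.26), the last pair being the cytoplasmic SR protein kinases. SRPK2 was 49.6 to 53.8 CPM in normoxic and 51.7 to 62.4 CPM in hypoxic PC3, and its change differed between the lines by 0.44 (SE 0.104, adjusted p = 0.0413, edgeR). Of 30 SR-related proteins, none passed in PC3 by edgeR, with 3 at an unadjusted p under 0.05, and 1 (U2SURP, lower) passed by DESeq2 and with the block. In HCT116 1 rose and 6 fell, the leading falls being LUC7L3 (-0.42), CLASRP (-0.33) and RSRC2 (-0.31), and these 7 calls among 30 are a share close to the 25.9% of all genes.

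Of 28 hnRNPs and related RNA-binding proteins under other symbols, PCBP4 rose (0.31) and CIRBP, a cold-inducible RNA-binding protein, fell (-0.35) in PC3, and PTBP2 and HNRPDL fell besides with the replicate block. Without both libraries numbered 1, PTBP2 passed there and CIRBP did not. In HCT116 PTBP2, the neural relative of the polypyrimidine tract binding protein, fell (-0.63), YBX1 (0.41) and RALY (0.24) rose, and HNRPDL fell (-0.24). CIRBP lay at 151 to 180.4 CPM in normoxic and 191 to 198 CPM in hypoxic HCT116, and its change differed between the lines by -0.55 (SE 0.124, adjusted p = 0.0297, edgeR). Of 33 tested core spliceosome genes, SF1 alone passed in PC3, with a fall of 0.22 on the log2 scale, while 1 rose and 3 fell with the replicate block, and in HCT116 1 rose (PRPF8, 0.22) and 3 fell (SNRPF, -0.30, SNRPD3, -0.28, and SF3A3, -0.20).

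The list of other regulators of alternative splicing gave no call among 11 tested in PC3 by edgeR, with 1 at an unadjusted p under 0.05, and none by DESeq2, while RBFOX2, MBNL2 and QKI rose with the replicate block. In HCT116 MBNL1 fell (-0.33) and MBNL2 rose (0.24), both of the muscleblind family. Of 14 genes of nonsense-mediated decay, the pathway that removes transcripts with the decay-inducing exons of SR genes, SMG6 rose (0.23) and SMG8 fell (-0.28) in PC3. Without both libraries numbered 1, SMG6 did not pass. In HCT116 SMG6 (0.36) and SMG1 (0.35) rose and UPF3B (-0.28) and UPF3A (-0.25) fell. The list medians in hypoxia lay between -0.09 and 0.06 in PC3 and between -0.06 and 0.10 in HCT116, beside 0.0023 and 0.0018 over all genes.

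Between the lines at normoxia, 26 of 33 core spliceosome genes were lower and 4 higher in PC3 (median log2 difference -0.58), against 40.5% lower and 42.9% higher among all genes. Of 30 SR-related genes 20 were lower and 3 higher (median -0.43), and of 28 hnRNPs and related proteins under other symbols 20 were lower and 3 higher (median -0.40). The 14 genes of nonsense-mediated decay held 7 lower and 3 higher (median -0.17), and the 11 kinases, phosphatases and import factor 4 and 4 (median -0.10). Of 13 other regulators of alternative splicing, 5 were lower and 7 higher (median 0.33), counts close to the shares of all genes.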

How the data were processed

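RNA-seq was performed on polyadenylated RNA of 8 PC3 and 6 HCT116 libraries, which the study describes as biological replicates. Per the labels and the study's methods, the authors removed reads of the ERCC spike-in, aligned the rest to GRCh37 with HISAT2 (2.05) and counted reads within RefSeq genes with HTSeq (0.5.4p3, intersection-strict). The deposited values are raw counts per gene, without normalisation. The RefSeq release and the use of strand in counting are not given in the sources used here. The spike-in counts were not used here.

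Totals of 71228454 to 150630928 counts per library set a floor of 3 counts, or 0.0199 to 0.0421 CPM, which covers counting error only. Counts were tested with edgeR (4.0.16, R 4.3.3) using filterByExpr, TMM scaling and the quasi-likelihood test, with Benjamini-Hochberg adjustment over all genes and a threshold of 0.05. Each line was fitted alone, the interaction used all 14 libraries, and the lines were compared in the 7 normoxic libraries. The SE was obtained by dividing the unshrunk log2 fold change by the root of the F statistic. Intervals are 1.96 SE to each side, which is narrower than the F test implies with so few libraries. CPM in the text used TMM factors common to the 14 libraries, and levels per kilobase used the canonical transcript of GENCODE release 44 on GRCh37. The GENCODE gene spans gave the coordinates, and they may differ from the RefSeq genes that were counted. The code was tested on simulated data.

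The replicate numbers pair the PC3 libraries, whose deviations from the condition means correlated at 0.832, 0.523, 0.345 and 0.413 for numbers 1 to 4. Between unmatched numbers the correlations ran from -0.583 to 0.360, so the pairing was clearest for number 1. DESeq2 (1.42.0), other scalings and filters, 1 fit over both lines and single left-out libraries were alternatives. Only the fits with the replicate block took account of the pairing in PC3, and those with left-out libraries did not. The fit of PC3 without both libraries numbered 1 and the comparison of the lines in hypoxia were added after values had been seen.

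Values are given in every sample for the CLK genes and for the 3 largest called rises and falls of the SR and hnRNP classes in each line, in the interaction and between the lines. Other listed genes are named where called in hypoxia and among the 3 largest changes of their list, and those named only with the block, without libraries or by DESeq2 were picked once values had been seen. Both members and lists were chosen with earlier results of these data known. Some values for genes outside the members are not reported here.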

Additional observations from a re-analysis of the deposited data

Results flagged for a closer look

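Of 68 groups of 4 PC3 libraries tested for a library far from its replicates, 11 held one, where chance would give about 3.4. In normoxic replicate 1, 7 members were low: SRSF3 (273 CPM against 309 to 315 in the others), SRSF9 (92.2 against 107 to 108), HNRNPA2B1 (1048 against 1417 to 1456), HNRNPA3 (373 against 468 to 481), HNRNPK (611 against 705 to 715), HNRNPR (249 against 301 to 307) and HNRNPUL1 (324 against 372 to 376). In hypoxic replicate 1, HNRNPD (223 CPM against 277 to 279) and HNRNPF (318 against 351 to 354) were low. HNRNPH1 was high in normoxic replicate 3 (391 CPM against 365 to 368). SRSF10 was high in hypoxic replicate 2 (16.3 CPM against 2.71 to 4.18). The HCT116 groups, of 3 libraries each, were not examined in this way.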

How the results depend on the processing

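In PC3, the count of members that rose was 1 with upper-quartile scaling, with total counts alone and with no filter, in place of 2. The count that fell there was 9 with total counts alone, 12 with the replicate block and 2 without both libraries numbered 1, in place of 4. Total counts alone moved the median of all PC3 genes by -0.11 on the log2 scale, and the share of rises among all PC3 calls was 53.3% with TMM, 39.4% with upper-quartile scaling and 24.5% with total counts. In HCT116, 9 members fell with total counts alone, in place of 3. In the interaction, 1 member was higher and 1 lower with DESeq2 and with the replicate block, in place of 0. Between the lines, 3 members were higher in the hypoxic libraries, in place of 5. With single libraries left out, the counts ran from 1 to 2 higher and 1 to 4 lower in PC3, 3 to 5 and 2 to 4 in HCT116, 0 to 2 and 0 to 1 in the interaction, and 4 to 7 and 23 to 24 between the lines. Signs were compared only for members called in a comparison, the CLK genes and SRSF10. The other members were not compared in this way. The hnRNP median in HCT116 was 0.028 with all libraries and -0.0091 without normoxic replicate 3. Among the members compared, HNRNPH3 alone had a called change that reversed sign. Reversals of changes not called were those of CLK4 in PC3 (0.078 without hypoxic replicate 4, and -0.14 to 0.078 over all left-out libraries) and SRSF10 in PC3 (-0.31 without hypoxic replicate 2, and -0.31 to 0.83 over all), and those of CLK1 and CLK2 that follow. The interaction of CLK1 was -0.0064 with upper-quartile scaling, and -0.029, -0.0015, -0.028 and -0.0058 (range -0.029 to 0.15) without hypoxic PC3 replicate 1, hypoxic PC3 replicate 3, hypoxic HCT116 replicate 1 and normoxic HCT116 replicate 2. In the hypoxic libraries, the line difference of CLK2 was -0.16 and that of HNRNPH3 was -0.038. Where no construction of the alternative shows it, the cause was not tested. In HCT116 the replicate numbers did not pair the libraries (correlations 0.0664, 0.373 and -0.0752), and the replicate block there ended the call of HNRNPK and no other member call. SRSF12 and HNRNPCL1 did not pass the filter on low counts, and the part of depth in this was not tested.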

Other observations

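One symbol that the rule left out as a pseudogene, HNRNPA1P33, had 445 to 1090 counts in the 8 PC3 libraries and 1 to 7 counts in the 6 HCT116 libraries. This corresponds to 4.61 to 10.5 CPM in PC3 and 0.00709 to 0.0504 CPM in HCT116. Its parent HNRNPA1, by contrast, was lower in PC3 than in HCT116 at normoxia, by 0.92 on the log2 scale (SE 0.0846). The assignment of reads between the symbols was not tested.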
